A study of Homo sapiens with 6 samples.

Results

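The collagen chains are the genes whose products assemble into collagens, the most abundant proteins of the extracellular matrix. They were chosen by name alone, as every gene in the count tables whose symbol reads COL, a type number, A and a chain number. This gave 43 of the 23228 listed genes. RNA-seq was performed on MDA-MB-231, a human cell line established from a triple-negative breast cancer, in 3 samples of cells stably expressing a control shRNA without a target and 3 samples of cells stably expressing a shRNA against PELP1 (PELP1-KD). All 6 samples came from puromycin-selected cells kept in RPMI with 10% FBS. A single PELP1 shRNA was used, so an effect of that hairpin on other transcripts and an effect of PELP1 loss cannot be told apart. Nothing in the labels says that the replicates came from separate cultures, and p-values therefore measure only the spread between these samples, which may be technical. PELP1 is a scaffold protein that works with nuclear receptors and in ribosome biogenesis.

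A collagen molecule is a helix wound from 3 chains, and each chain repeats the triplet Gly-X-Y because only glycine is small enough to face the helix axis. Fibrillar collagens (types I, II, III, V, XI, XXIV and XXVII) keep this repeat almost unbroken and pack side by side into fibrils. Basement-membrane collagens (type IV, with types XV and XVIII beside it) have many breaks in the repeat, and type IV chains join into the sheet under epithelia. Network-forming collagens (types VI, VIII and X) build beaded filaments or hexagonal lattices. Membrane collagens (types XIII, XVII, XXIII and XXV) span the plasma membrane and carry their triplets on the outer face. Fibril-associated collagens decorate the surface of fibrils. Type VII, which forms the anchoring fibrils under skin and other epithelia, and type XXVIII were kept as other. The 43 chains fell into 11 fibrillar, 8 basement-membrane, 8 network, 4 membrane, 10 fibril-associated and 2 other chains. Tumor cells both make and remodel collagen, and the cells of the stroma usually make most of the fibrillar types in a breast tumor.

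The length of the unbroken repeat set the fibrillar chains apart, while its range overlapped among the other classes. The stretches below, each of 60 bases, were read from the GENCODE transcript of the chain, and the glycine codons in phase with the repeat are in capitals. They come from 3 chains that rose (COL1A1, COL5A1 and COL4A1) and from COL13A1, which did not pass the test, and are shown to let the repeat and a break in it be read.
COL1A1, residues 179 to 198: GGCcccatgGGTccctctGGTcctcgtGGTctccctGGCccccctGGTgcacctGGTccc
COL5A1, residues 559 to 578: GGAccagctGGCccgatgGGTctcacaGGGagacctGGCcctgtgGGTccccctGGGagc
COL4A1, residues 218 to 237: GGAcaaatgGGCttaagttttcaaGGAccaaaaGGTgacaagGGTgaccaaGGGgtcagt
COL13A1, residues 579 to 598: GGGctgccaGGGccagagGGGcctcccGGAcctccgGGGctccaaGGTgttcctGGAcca
The fibrillar stretches of COL1A1 and COL5A1 and the membrane stretch of COL13A1 keep a glycine codon at the head of every triplet. The COL4A1 stretch holds a break of 2 residues between 2 runs. Counting runs of at least 5 triplets, the longest run of a fibrillar chain had between 216 and 343 triplets, with a median of 338 over the 11 chains. The longest run had between 30 and 66 triplets in basement-membrane chains, between 37 and 87 in network chains, between 43 and 55 in membrane chains and between 32 and 113 in fibril-associated chains. COL4A1 was cut into 22 runs and COL4A2, its usual partner, into 24, against 2 runs in COL1A1. In spite of the shared repeat, no chain shared a word of 50 bases with another chain, so that reads as long as such a word would not be split between chains.

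Collagen genes often lie in pairs. COL4A1 and COL4A2, which encode the common chains of type IV collagen, stand head to head on chromosome 13. The interval between their RefSeq start sites (GRCh38.p14, chr13:110307158-110307283, 126 bases, plus strand) is shown because both genes rose and share it, with a CCAAT box and a GC box in capitals.
COL4A1-COL4A2 interval: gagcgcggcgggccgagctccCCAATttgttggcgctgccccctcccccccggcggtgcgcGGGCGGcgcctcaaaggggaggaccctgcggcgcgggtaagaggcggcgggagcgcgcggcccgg
COL4A5 upstream: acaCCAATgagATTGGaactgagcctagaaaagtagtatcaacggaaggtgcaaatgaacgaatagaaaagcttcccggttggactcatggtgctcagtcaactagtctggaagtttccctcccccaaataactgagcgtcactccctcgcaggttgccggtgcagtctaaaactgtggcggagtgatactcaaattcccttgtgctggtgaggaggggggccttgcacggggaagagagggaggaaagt
The second sequence is the 250 bases before the RefSeq start of COL4A5 (chrX:108439588-108439837, plus strand), which stands head to head with COL4A6. It is given beside the first because only COL4A5 of that pair had enough reads to be tested, and its capitals mark CCAAT on either strand. The interval on chromosome 13 was 80.2% G+C, against a median of 60.3% over windows of the same length before the 35116 RefSeq starts. Searched on both strands, it held 1 match to the GC box letters GGGCGG, which were found in 34.6% of those windows. It also held 1 match to the CCAAT box, found in 21.1% of those windows. The TATA box letters TATAAA, the AP-1 letters TGACTCA and the E-box letters CACGTG had 0 matches in it, and were found in 5.87%, 2.46% and 4.04% of those windows. None of the matches overlapped another. The COL4A5 sequence was 51.2% G+C, against a median of 58% for windows of 250 bases. It held the CCAAT box in 2 places, where 32% of such windows hold it, and the GC box in 0 places, where 42.6% do. These matches describe the letters, and no binding was measured. Some GENCODE transcripts of COL4A1 and COL4A2 start beyond these RefSeq sites.

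The authors deposited the reads counted on each gene, without normalization, and the counts on genes summed to between 17304864 and 23132102 per sample. Levels are given as CPM, the count scaled to the TMM-adjusted library size, in the order control replicates 1, 2 and 3 and then PELP1-KD replicates 1, 2 and 3. A count of 3, taken as the floor of detection, is between 0.127 and 0.177 CPM. Such floors cover counting error only. PELP1 was at 57.2, 56.1 and 60.2 CPM in the control cells and at 28.6, 29.9 and 30.3 CPM in PELP1-KD cells. The groups did not overlap, and PELP1 fell by 0.97 on the log2 scale (standard error 0.0552, adjusted p = 1.48e-11 from edgeR's quasi-likelihood test). A two-sided exact permutation test of PELP1 gave p = 0.1, the smallest p that 3 samples against 3 allow. In the line itself the breast luminal genes ESR1 and PGR and the epithelial CDH1 were under 0.3 CPM in every sample, while ERBB2, listed with them, lay between 109 and 128 CPM and the epithelial EPCAM between 8.62 and 11.2 CPM. The mesenchymal VIM lay between 1909 and 2291 CPM.

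Of the 43 chains, 9 had 0 reads in every sample, which were COL5A3, COL6A5, COL6A6, COL9A1, COL10A1, COL14A1, COL22A1, COL23A1 and COL28A1. Another 13 had between 1 and 7 reads in their highest sample and did not pass the filter on low counts. The remaining 21 chains were tested with the other genes, 12796 in all. COL11A2 passed the filter only through the PELP1-KD samples, where it was higher, and COL4A4 had a PELP1-KD sample below the filter's level of 0.498 CPM. Among the tested chains, 10 rose in PELP1-KD cells, 5 fell and 6 did not pass an adjusted p of 0.05, where 22.7% of all tested genes rose and 24.2% fell. The 10 include COL11A2, which is not read as support. With at least 10 counts required in every sample, COL11A2 and COL4A4 were not tested, and 9 chains rose and 4 fell. Past 2-fold, 3 chains were higher, against 1.9% of all tested genes, and 1 was lower, against 1.34%. Of these, COL11A2 and COL4A4 were not tested when 10 counts were required in every sample, which left 2 higher and 0 lower. The groups did not overlap for 16 chains, COL11A2 among them, against 55% of all tested genes. The median log2FC of the tested chains, COL11A2 included, was 0.10, and that of all tested genes was 0.0014.

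**Figure D1:**
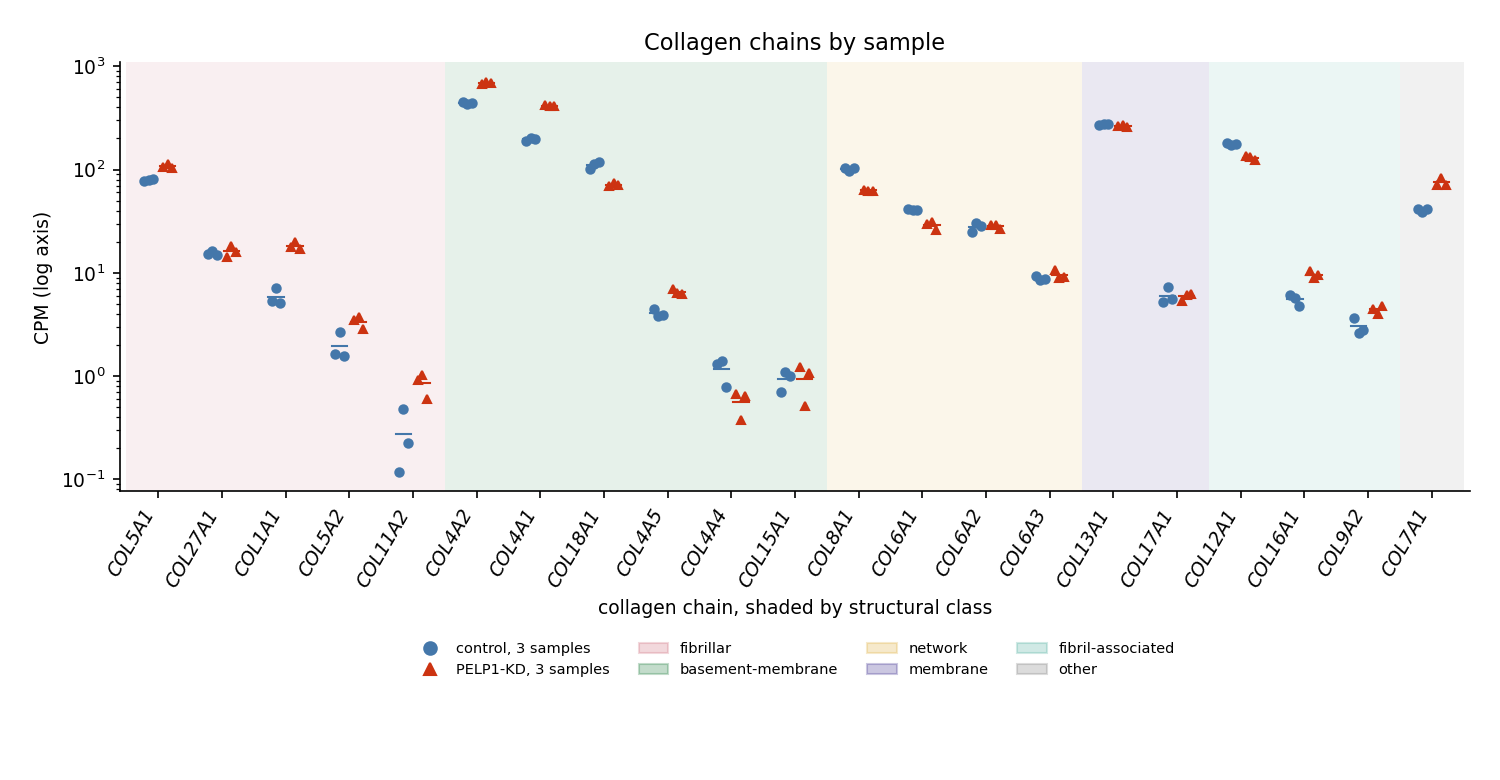
Levels of the 21 tested collagen chains in each sample, as CPM on a log axis, with chains on the horizontal axis shaded by structural class; circles are the 3 control samples, triangles the 3 PELP1-KD samples and short lines the group means. COL4A2, COL13A1 and COL4A1 hold the highest levels, and the COL4A1 samples move from between 188 and 202 CPM to between 408 and 420 CPM.

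Collagen reads as a whole were few, between 0.149% and 0.202% of the reads on genes in a sample. Summed over all 43 chains they came to 1529, 1538 and 1560 CPM in the control cells and to 1938, 1984 and 1906 CPM in PELP1-KD cells, so that each PELP1-KD sample was above each control. The sum was 1.26 times as high. COL4A1 and COL4A2 together accounted for 41.4% ± 0.267 (SD, n = 3) of it in the control cells and 56.6% ± 0.6 (SD, n = 3) in PELP1-KD cells. In bulk RNA, a different number of cells carrying a transcript and a different amount per cell cannot be told apart.

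Among the 5 tested fibrillar chains, COL1A1, COL5A1 and COL5A2 rose, 0 fell and COL27A1 did not pass the test. Of all tested genes, 22.7% rose and 24.2% fell. The class is small and was not tested against those shares. COL11A2 was also called higher, but it entered the test only through the samples where it was high, and is not read as support. COL1A1 encodes the main chain of type I collagen, the bulk of bone, tendon and tumor stroma. It was at 5.32, 7.08 and 5.13 CPM in the control cells and at 17.7, 19.8 and 16.9 CPM in PELP1-KD cells. Every PELP1-KD sample lay above the highest control, and COL1A1 rose 3.05-fold (log2FC 1.61, standard error 0.112, adjusted p = 3.23e-10). Its partner in type I collagen, COL1A2, had 0, 0 and 1 reads in the control cells and 2, 4 and 3 reads in PELP1-KD cells, at or near the floor of 3 counts, and was not tested. COL3A1, the chain of type III collagen that accompanies type I in soft tissue, had between 0 and 3 reads in every sample. Type I collagen is usually made of both chains, and in these samples only COL1A1 of them was above the floor throughout.

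Type V collagen starts and limits the width of fibrils. Its COL5A1 chain was the most abundant fibrillar chain, at 77.5, 79.7 and 81.8 CPM in the control cells and 105, 113 and 104 CPM in PELP1-KD cells. It rose 1.35-fold (log2FC 0.43, standard error 0.0456, adjusted p = 1.52e-07). COL5A2, the partner chain, was near 2 CPM, with 1.66, 2.68 and 1.58 CPM in the control cells and 3.49, 3.7 and 2.85 CPM in PELP1-KD cells. The highest control stood close to the lowest PELP1-KD sample, and COL5A2 rose by a log2FC of 0.71 (standard error 0.2, adjusted p = 0.00608). COL11A2, a chain of the cartilage type XI collagen, was scarce, with 0.118, 0.484 and 0.225 CPM against 0.923, 1.03 and 0.595 CPM. Its log2FC was 1.49 (standard error 0.42), became 2.24 without control replicate 2, and rests on a gene with 2 to 22 reads in a sample. Its p-value is not given, because it passed the filter only through the samples where it was high. COL27A1, a chain of cartilage fibrils, lay between 14.8 and 16.4 CPM in the control cells and between 14.2 and 18.4 CPM in PELP1-KD cells. The groups overlapped, and the 95% interval of its log2FC ran from -0.13 to 0.25.

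Fibroblasts are the usual makers of fibrillar collagen, so their markers were read beside these chains. The 5 fibroblast markers (DCN, LUM, PDGFRA, PDGFRB and THY1) summed to between 14.1 and 17 CPM in the control cells and to between 44.9 and 47.2 CPM in PELP1-KD cells. PDGFRB, the receptor for PDGF-BB, gave nearly all of this sum and rose by a log2FC of 1.53 (adjusted p = 3.73e-13). DCN, which encodes the collagen-binding proteoglycan decorin, had 0 reads in every sample. The other 4 markers summed to at most 0.113 CPM in the control cells and at most 0.257 CPM in PELP1-KD cells.

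Of 6 tested basement-membrane chains, 3 rose, 2 fell and COL15A1 did not pass the test, where 22.7% of all tested genes rose and 24.2% fell. The fall of COL4A4 did not hold in 2 of the 6 fits that leave out a sample. COL4A1 and COL4A2, which build the common type IV network together, both rose. COL4A1 was at 188, 202 and 197 CPM in the control cells and at 420, 408 and 410 CPM in PELP1-KD cells. It rose 2.11-fold (log2FC 1.08, standard error 0.0332, adjusted p = 8.02e-16), and passed the test with any sample left out. COL4A2 was the chain with the most reads, at 449, 433 and 445 CPM in the control cells and 671, 705 and 681 CPM in PELP1-KD cells. It rose 1.55-fold (log2FC 0.63, standard error 0.029, adjusted p = 4.4e-13). The 95% intervals of the log2FC were 1.01 to 1.15 for COL4A1 and 0.57 to 0.69 for COL4A2.

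The paired genes COL4A5 and COL4A6 encode chains of smooth-muscle and kidney basement membranes. COL4A5 was at 4.44, 3.83 and 3.89 CPM in the control cells and at 6.98, 6.42 and 6.25 CPM in PELP1-KD cells, and rose by a log2FC of 0.70 (standard error 0.125, adjusted p = 0.000118). COL4A6, on its other side, had between 1 and 5 reads per sample. COL4A3 and COL4A4, a head-to-head pair on chromosome 2 whose products join COL4A5 in the kidney filter, were both scarce. COL4A4 was at 1.3, 1.41 and 0.789 CPM in the control cells and at 0.667, 0.375 and 0.637 CPM in PELP1-KD cells, with 8 to 32 reads in a sample. Its groups were separate by a narrow margin, and its log2FC was -1.07 (standard error 0.317, adjusted p = 0.00872). Without control replicate 2 the log2FC was -0.89 with an adjusted p of 0.0638, and without PELP1-KD replicate 2 it was -0.85 with an adjusted p of 0.0553. COL4A3 had at most 3 reads in a sample.

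COL18A1 and COL15A1 encode the multiplexins, basement-membrane collagens whose ends release endostatin and a like fragment. COL18A1 was at 101, 113 and 118 CPM in the control cells and at 68.9, 73.8 and 70.6 CPM in PELP1-KD cells. The groups were far apart, and COL18A1 fell by 0.64 on the log2 scale (standard error 0.0521, adjusted p = 3.27e-09). Of its annotated exon bases, 16.4% lie opposite exons of SLC19A1, which had 0 reads in every sample. COL15A1 was at 0.71, 1.1 and 1.01 CPM in the control cells and at 1.23, 0.516 and 1.06 CPM in PELP1-KD cells. Its samples overlapped, and the 95% interval of its log2FC was wide, from -0.69 to 0.61.

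**Figure D2:**
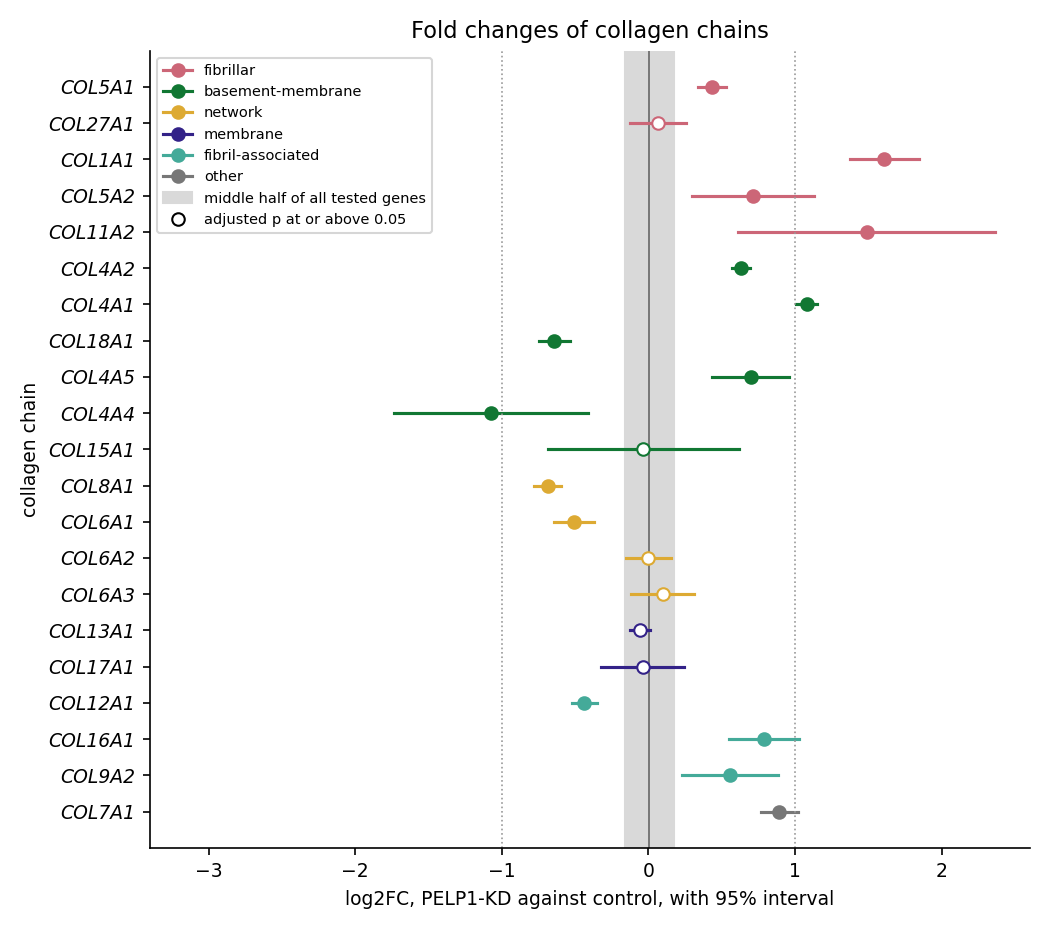
Log2FC of each tested collagen chain, PELP1-KD against control, with its 95% interval; colors give the structural class, open circles an adjusted p at or above 0.05, the grey band the middle 50% of all tested genes and dotted lines a 2-fold change. COL1A1 at 1.61 and COL4A1 at 1.08 lie past 2-fold, with intervals of 1.37 to 1.84 and 1.01 to 1.15. COL11A2 and COL4A4 have longer intervals, and COL8A1, COL18A1, COL6A1 and COL12A1 lie to the left.

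Of the 4 network chains tested, 2 fell, 0 rose and 2 did not pass the test, where 24.2% of all tested genes fell and 22.7% rose. So few chains do not set the class apart from that background. COL8A1 encodes a short-chain collagen of vessel walls and of the membrane under the corneal endothelium. It was at 103, 96.5 and 103 CPM in the control cells and at 63.5, 62.4 and 62.2 CPM in PELP1-KD cells. It fell by 0.69 on the log2 scale, a level 1.61 times lower (standard error 0.0452, adjusted p = 1.4e-10). COL8A2, its partner, had between 1 and 3 reads in every sample. Type VI collagen forms the beaded filaments around cells from COL6A1, COL6A2 and COL6A3. COL6A1 was at 41.3, 40.4 and 40.4 CPM in the control cells and at 29.6, 30.8 and 25.7 CPM in PELP1-KD cells, and fell by 0.51 on the log2 scale (standard error 0.0656, adjusted p = 2.42e-06). COL6A2, its tandem neighbour on chromosome 21, was at 24.8, 30.5 and 28.6 CPM against 28.9, 29.3 and 26.3 CPM. The COL6A2 samples overlapped, and the 95% interval of its log2FC was -0.15 to 0.15. COL6A3, the long chain of the type, was at 9.34, 8.54 and 8.79 CPM against 10.6, 8.81 and 9.13 CPM, also overlapping, with an interval of -0.12 to 0.31. Of the 3 tested chains of type VI, COL6A1 alone passed the test.

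Neither of the 2 tested membrane chains passed the test. COL13A1, found at cell adhesions and at the neuromuscular junction, was at 269, 274 and 277 CPM in the control cells and at 265, 267 and 257 CPM in PELP1-KD cells. All 3 PELP1-KD samples were below all 3 controls, but by little, with a log2FC of -0.06 (95% interval -0.12 to 0.01, adjusted p = 0.16). COL17A1, the hemidesmosome collagen that anchors epithelial cells, was at 5.2, 7.3 and 5.52 CPM against 5.39, 6.14 and 6.2 CPM. Its groups overlapped, with an interval of -0.32 to 0.24. COL23A1 had 0 reads, and COL25A1 had 1 read in a single sample.

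The fibril-associated and anchoring-fibril chains were the remaining ones. COL12A1, which binds fibrils in tendon and around tumors, was at 180, 172 and 177 CPM in the control cells and at 136, 131 and 123 CPM in PELP1-KD cells. It fell by 0.44 on the log2 scale (standard error 0.0401, adjusted p = 2.01e-08). COL16A1, a chain found at the edge of fibrils and of basement membranes, rose from 6.15, 5.68 and 4.79 CPM to 10.3, 8.91 and 9.52 CPM, by a log2FC of 0.79 (standard error 0.115, adjusted p = 1.1e-05). COL9A2, a chain of cartilage type IX collagen, rose from 3.67, 2.64 and 2.82 CPM to 4.46, 3.98 and 4.8 CPM, by a log2FC of 0.56 (standard error 0.157, adjusted p = 0.00625). COL9A1, which joins it in cartilage, had 0 reads, and COL9A3 had between 1 and 5. COL7A1 was at 41.6, 38.7 and 41.6 CPM in the control cells and at 71.6, 82.7 and 71.4 CPM in PELP1-KD cells. The groups were far apart, and COL7A1 rose 1.85-fold (log2FC 0.89, standard error 0.0604, adjusted p = 2.09e-10).

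**Figure D3:**
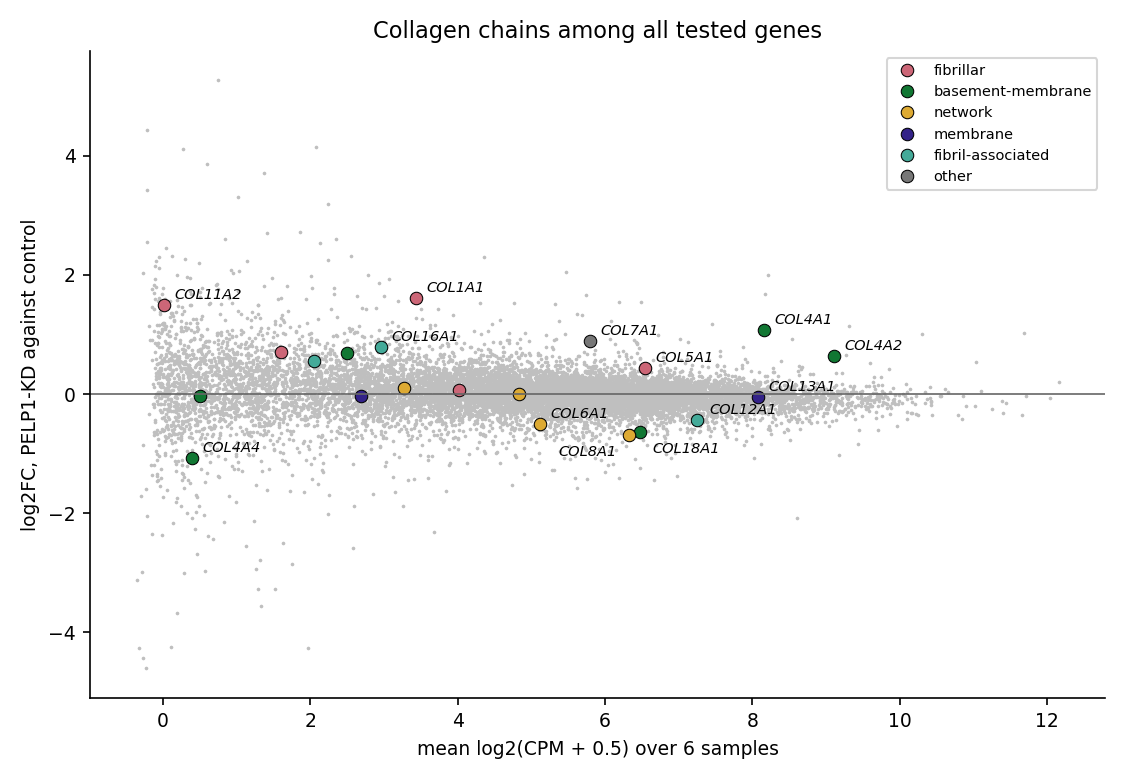
Log2FC against the mean of log2(CPM + 0.5) over the 6 samples, for all 12796 tested genes (grey) and the 21 tested collagen chains (colored by class). COL4A1 at 1.08 and COL4A2 at 0.63 lie high above 0 at a high level, and COL8A1 at -0.69 and COL18A1 at -0.64 lie below 0, with other genes of a similar level lower still.

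The order of the chains was compared per kilobase of a single transcript per chain. Per kilobase, the control cells held COL13A1 at 85.8 CPM ± 1.38 (SD, n = 3), COL4A2 at 68.1 CPM ± 1.25 and COL4A1 at 29.5 CPM ± 1.03, and these 3 levels did not overlap. COL8A1 and COL18A1 followed at 17.7 and 16.8 CPM per kilobase, and these neighbours overlapped. In PELP1-KD cells COL4A2 was first, at 106 CPM per kilobase ± 2.67 (SD, n = 3), and COL13A1 second, at 82.5 CPM per kilobase ± 1.77. COL4A1 stayed at rank 3, at 62.4 CPM per kilobase ± 1. The order of the first pair and the rank of COL4A1 depended on the length used. Per kilobase of all annotated exons, COL13A1 was first and COL4A2 second in both groups, at 46.4 and 22.9 CPM in the control cells and at 44.7 and 35.5 CPM in PELP1-KD cells. By that length COL4A1 was at rank 4 in the control cells, at 13.3 CPM ± 0.462 (SD, n = 3) behind COL12A1 at 14.1 CPM. COL18A1 came next at 13 CPM ± 1.02, within an SD of COL4A1, so these neighbours were not separated. COL4A1 was at rank 3 in PELP1-KD cells. On the single-transcript scale COL5A1 moved from rank 8 to rank 4 among the 21 tested chains. COL1A1 moved from rank 15, where COL9A2, COL17A1, COL16A1, COL1A1 and COL6A3 overlapped from each rank to the next, to rank 11. COL6A1 went from rank 7, where it overlapped COL5A1, to rank 10.

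The make-up of the collagen reads by class differed between the groups. The basement-membrane share was 48.7%, 49.1% and 49.1% of collagen reads in the control cells and 60.4%, 60.2% and 61.4% in PELP1-KD cells. The network share was 11.7%, 11.4% and 11.6% in the control cells and 6.85%, 6.63% and 6.47% in PELP1-KD cells. The membrane share, nearly all COL13A1, went from 18.1% ± 0.204 to 13.8% ± 0.114 (SD, n = 3 each), while the summed membrane CPM was only 3.72% lower. The fibril-associated share went from 12% ± 0.359 to 7.44% ± 0.302, and the fibrillar share from 6.71% ± 0.192 to 7.55% ± 0.336. The size of these last changes depended on the scale. The fibrillar change was 0.842 percentage points of reads, 2.27 without COL4A2 and 1.74 per kilobase of all annotated exons. The fibril-associated change was -4.57 points of reads, -1.95 per kilobase of transcript and -2.92 per kilobase of all annotated exons, and the membrane change was -4.26 points of reads and -6.6 per kilobase of transcript. The groups did not overlap in any class, but shares add to a fixed total, so a higher share of a class lowers the sum of the others. In CPM, the summed level was 1.56 times as high in PELP1-KD cells for basement-membrane chains, 1.42 times for fibrillar chains, 0.723 times for network chains and 0.78 times for fibril-associated chains. A few abundant chains set these sums. COL4A1 and COL4A2 together went from 638 to 1099 CPM within basement-membrane sums of 755 and 1178 CPM, while COL18A1 fell. In the control cells COL12A1 held 176 of the 185 CPM of fibril-associated chains, and it fell while COL16A1 and COL9A2 rose. There COL5A1 also held 79.7 of the 103 CPM of fibrillar chains, and COL8A1 101 of the 179 CPM of network chains. These sums were not tested.

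**Figure D4:**
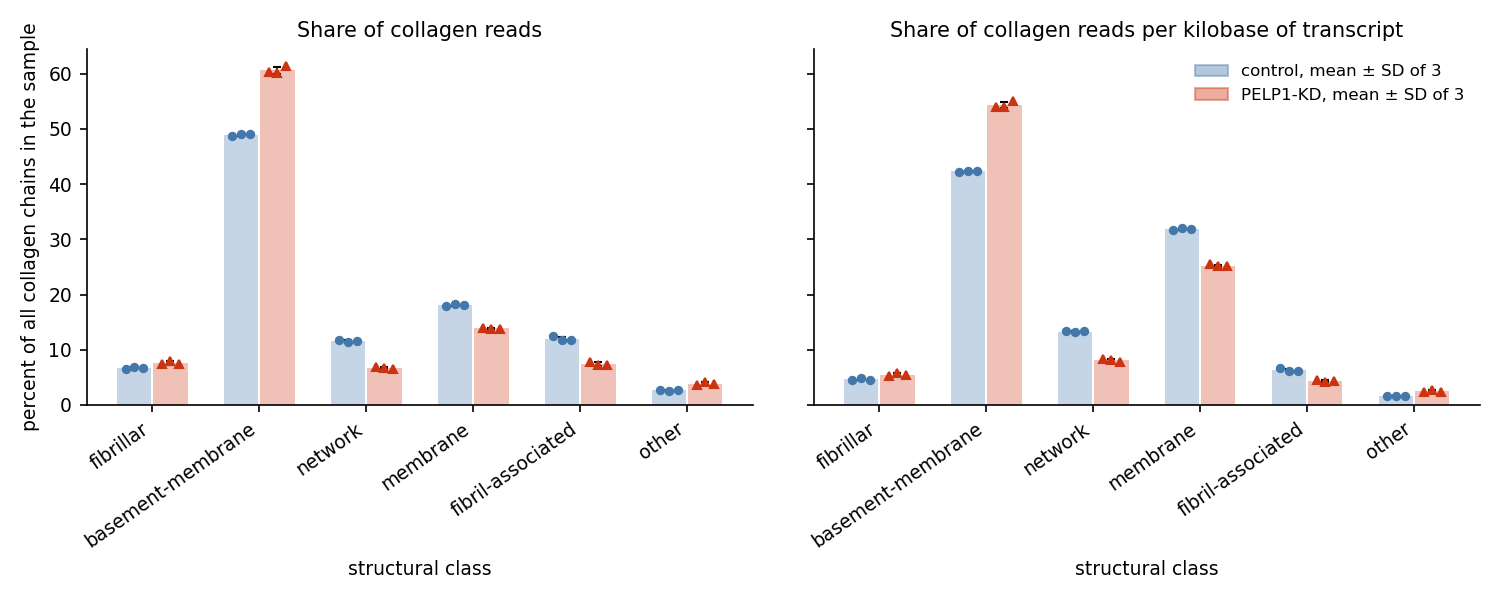
Share of each structural class among the collagen reads of a sample, in percent, from reads (left) and from reads per kilobase of transcript (right); bars are means of 3 samples with SD, and points are samples. The basement-membrane share rises from 49% to 60.6% of reads and from 42.3% to 54.4% of reads per kilobase, and the network, membrane and fibril-associated shares are lower in PELP1-KD cells on both scales.

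Ratios between chains of a molecule were taken within each sample, and 3 of the 4 ratios separated the groups. For single genes, the groups did not overlap in 55% of all tested genes. The ratios of COL6A1 to COL6A2 and of COL6A3 to COL6A1 share COL6A1, the only type VI chain that passed the test, so they are not independent. Per kilobase, the ratio of COL4A1 to COL4A2 was 0.411, 0.457 and 0.433 in the control cells and 0.615, 0.568 and 0.592 in PELP1-KD cells, 1.36 times as high. The ratio of COL6A1 to COL6A2 was 1.36, 1.08 and 1.15 in the control cells and 0.837, 0.86 and 0.798 in PELP1-KD cells. The ratio of COL6A3 to COL6A1 was 0.0891, 0.0832 and 0.0858 in the control cells and 0.141, 0.113 and 0.14 in PELP1-KD cells. The groups did not overlap in any of these ratios, which were not tested. The ratio of COL5A1 to COL5A2 was 39.1, 24.8 and 43.4 against 25.2, 25.6 and 30.5, and the groups overlapped. For COL1A1 with COL1A2, COL4A5 with COL4A6 and COL8A1 with COL8A2, a partner had fewer than 10 reads in some sample, and no ratio was taken.

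Collagen is made in the endoplasmic reticulum, where prolines and lysines are hydroxylated and chaperones guard the helix. It then leaves in large carriers, is trimmed by propeptidases, cross-linked by lysyl oxidases, bound by receptors and cut by collagenases. A list of 60 symbols with these roles was read beside the chains, and 51 were tested. The tables list MIA2 and CTAGE5 apart, although both are now names of a single gene, so these counts hold that gene as 2 symbols. Of these, 15 rose, 16 fell and 20 did not pass the test, so that 29.4% rose and 31.4% fell, against 22.7% and 24.2% of all tested genes. Their median log2FC was -0.02, against 0.0014 for all tested genes.

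Hydroxylation and sugar transfer held 14 tested genes, of which 7 fell and 3 rose. Among all tested genes, 24.2% fell and 22.7% rose, and the role was not tested as a set. GLT25D1, the galactosyltransferase of collagen hydroxylysine (now named COLGALT1), was at 317, 329 and 329 CPM in the control cells and at 196, 210 and 195 CPM in PELP1-KD cells, and fell by 0.70 on the log2 scale (adjusted p = 1.86e-12). The lysyl hydroxylases PLOD1, PLOD2 and PLOD3 fell, by 0.16, 0.44 and 0.22 on the log2 scale. Of the prolyl hydroxylase subunits, P4HA1 and P4HB fell, by 0.31 and 0.20, and P4HA2 rose by 0.23. LEPREL1, a prolyl 3-hydroxylase that acts on type IV collagen (now named P3H2), was at 120, 124 and 123 CPM in the control cells and at 170, 176 and 167 CPM in PELP1-KD cells, and rose by a log2FC of 0.48 (adjusted p = 1.65e-09). Among 6 chaperones, the collagen chaperone SERPINH1 rose by 0.17 (adjusted p = 0.000463) and FKBP14 by 0.29, and the general chaperone HSPA5 fell by 0.11 (adjusted p = 0.00142). The groups overlapped for FKBP14. PPIB, FKBP10 and TMEM38B did not pass the test, and the chaperones were not tested as a set.

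Of 10 export symbols, 2 rose, 2 fell and 6 did not pass the test, with MIA2 and CTAGE5 among the 6. The shares of 20% rising and 20% falling were near the 22.7% and 24.2% of all tested genes, and export was not tested as a set. SEC23A, an inner-coat protein of the COPII carriers that bring procollagen out of the endoplasmic reticulum, was at 205, 199 and 201 CPM in the control cells and at 80.1, 77.3 and 75 CPM in PELP1-KD cells. It fell by 1.38 on the log2 scale, to a level 2.6 times lower (standard error 0.0392, adjusted p = 2.67e-16). KLHL12, which enlarges these carriers, rose by 0.16 (adjusted p = 0.00876), and the cargo receptor MIA3 rose by 0.14 (adjusted p = 0.0457). The groups overlapped for MIA3. The outer-coat genes SEC13 and SEC31A did not pass the test, with log2FC values of -0.0049 and -0.06. Propeptide removal held 6 tested genes, of which 3 rose and 0 fell, against 22.7% and 24.2% of all tested genes. The role was not tested as a set. The 3 that rose were BMP1, the C-propeptidase of fibrillar collagen (0.43), ADAMTS14, an N-propeptidase (0.35), and PCOLCE, an enhancer of BMP1 (0.85, at 1.09 CPM in the control cells).

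Among 5 cross-linking genes, LOX and LOXL2 fell, by 0.56 and 0.23 on the log2 scale, and LOXL3 rose by 0.69. LOX, a lysyl oxidase that links fibrillar chains, was at 55.9, 54.3 and 52.5 CPM in the control cells and at 39.6, 35.8 and 35.5 CPM in PELP1-KD cells (adjusted p = 9.25e-08). Of the 6 tested receptors, ITGA1, DDR1 and MRC2 rose, and ITGA2 and ITGB1 fell. Among all tested genes, 22.7% rose and 24.2% fell, and neither the cross-linking genes nor the receptors were tested as a set. ITGA2 and ITGA1 encode the collagen-binding alpha subunits that pair with ITGB1. ITGA2 was at 76.7, 67.9 and 72.7 CPM in the control cells and at 38.1, 38.4 and 38.7 CPM in PELP1-KD cells, a fall of 0.91 on the log2 scale (adjusted p = 2.57e-11). ITGA1 rose by 0.28 (adjusted p = 0.00247), and the collagen-activated kinase DDR1 by 0.41 (adjusted p = 9.68e-06).

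Among the collagenases, MMP1, which cuts fibrillar collagens, had the largest fold change in either direction among the tested genes of the list. It was at 827, 788 and 779 CPM in the control cells and at 190, 187 and 190 CPM in PELP1-KD cells. MMP1 fell by 2.08 on the log2 scale, to a level 4.23 times lower (standard error 0.0314, adjusted p = 6.33e-21). MMP14, the membrane-bound collagenase, fell by 0.44 (adjusted p = 2.19e-10) from 505 CPM ± 9.81 (SD, n = 3). MMP8, the neutrophil collagenase, was scarce, at 1.89, 1.45 and 2.14 CPM against 3.18, 4.08 and 3.74 CPM, and rose by a log2FC of 1.03 (adjusted p = 0.000107). The MMP1 level in the control cells was above that of each collagen chain in CPM.

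**Figure D5:**
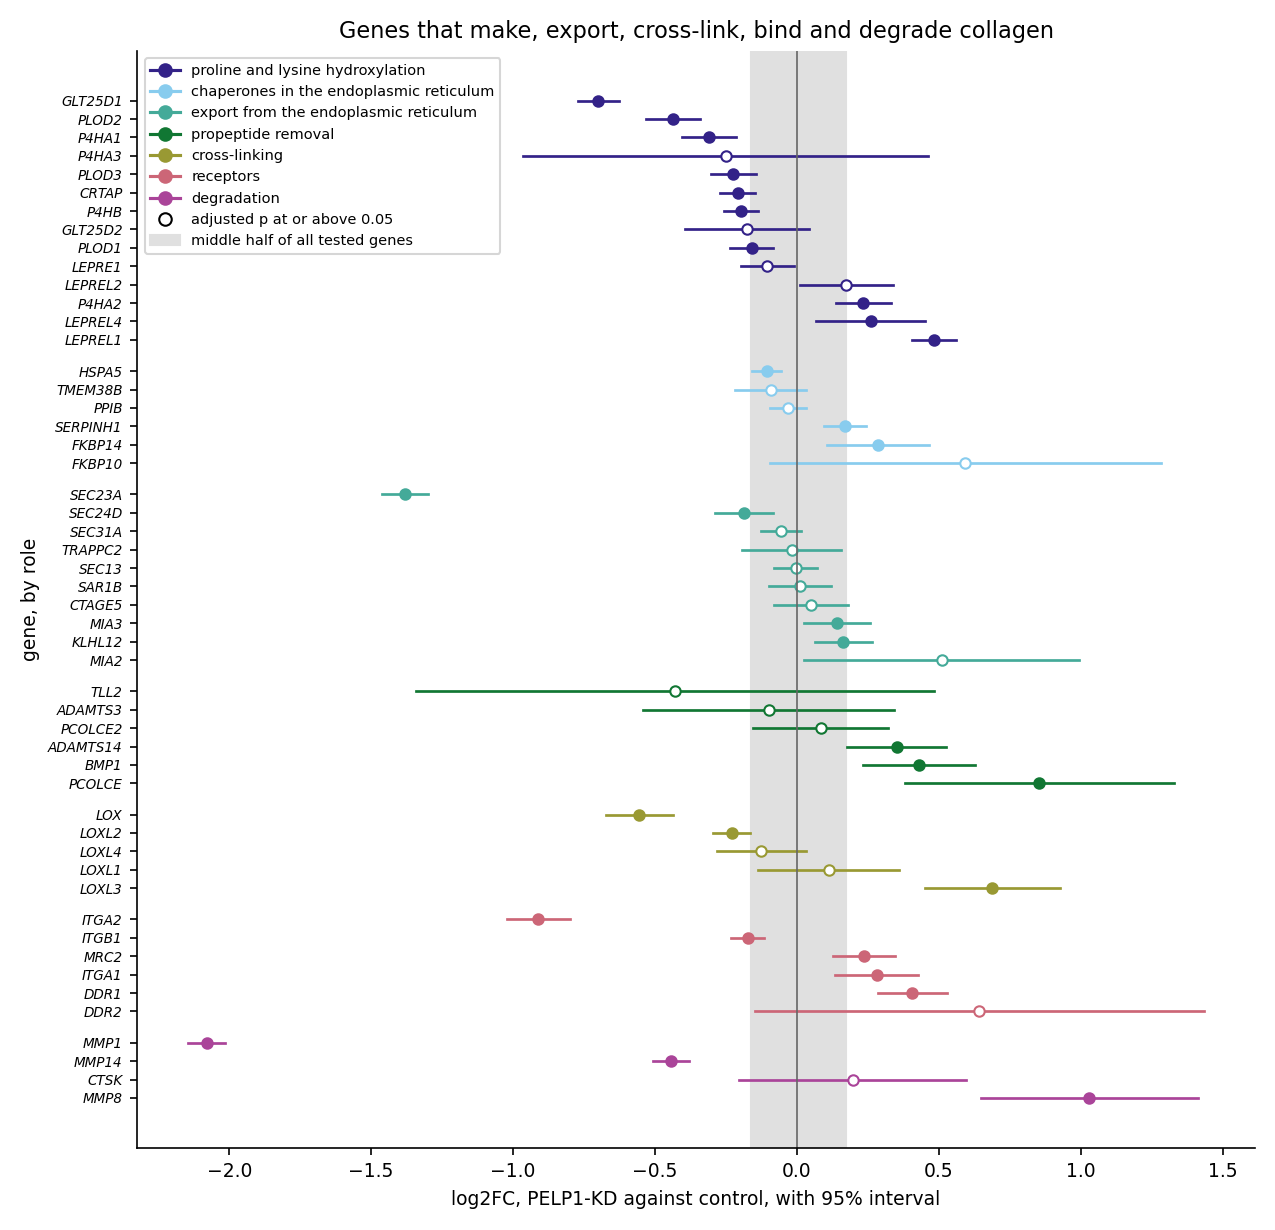
Log2FC with 95% interval for the 51 tested genes that modify, fold, export, trim, cross-link, bind or degrade collagen, grouped and colored by role; open circles have an adjusted p at or above 0.05, and the grey band is the middle 50% of all tested genes. MMP1 at -2.08 and SEC23A at -1.38 lie farthest to the left, and MMP8 at 1.03 farthest to the right.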

How the data were processed

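RNA-seq was analysed in 3 control shRNA and 3 PELP1-KD samples of MDA-MB-231 cells. The authors deposited counts, whole numbers of reads per gene symbol without normalization, for each sample. The submitters' processing notes name bcl2fastq, TopHat2, SAMtools, HTSeq and hg19; versions, gene annotation and strand setting are not given in the sources used here. The kit was stranded, but whether antisense reads were counted apart is unknown. Of all counts, between 32.5% and 32.9% were set aside as alignments that were not unique and placed on no gene. All counts on no gene, between 41% and 41.4%, were left out of library sizes.

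Genes passing edgeR's filterByExpr (minimum of 10 counts) were scaled by TMM and tested with the quasi-likelihood test of edgeR 4.0.16 in R 4.3.3, with Benjamini-Hochberg adjustment over all 12796. Standard errors are log2FC over the square root of F. Scripts were tested on simulated counts. Alternatives were RLE, library totals, voom (limma 3.58.1), DESeq2 1.42.0, an unfiltered table, at least 10 counts in every sample, the replicate block and leaving out each sample. Lengths and coding stretches came from a single GENCODE release 29 transcript per chain; lengths over all annotated exons, for class shares and the order of chains, were added after seeing the data. Promoters are from RefSeq (GRCh38.p14), where 31 of the 43 chains matched. Every chain that passed the filter is named, and of the machinery the gene with the lowest p in each direction and role; other machinery genes were named after their values were seen. Members and lists were chosen with earlier results of these data known. Replicates of a group differed by more than sampling noise, with a chi-square between 1.46 and 3.99 per degree of freedom.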

Additional observations from a re-analysis of the deposited data

How the results depend on the processing

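The call of each tested chain held under RLE size factors, library totals, DESeq2, voom, no filter on low counts and the replicate block. For COL11A2 this is not read as support, because it passed the filter only through the samples where it was high. Only COL4A4 lost its call, in 2 of the 6 fits that leave out a sample. With at least 10 counts in every sample, COL4A4 and COL11A2 were not tested, and the number of chains lower beyond 2-fold went from 1 to 0. Leaving out a sample gave between 0 and 1 such chains and between 4 and 5 lower chains. It gave 10 higher chains and between 3 and 4 higher beyond 2-fold, each count with COL11A2 in it. Among the machinery genes, between 12 and 16 were then higher and between 16 and 17 lower. HSPA5 missed the threshold with library totals alone (log2FC -0.06, adjusted p = 0.0572). Library totals moved the median log2FC of all tested genes to 0.05.

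The change in class share, PELP1-KD minus control in percentage points of collagen reads, kept its direction in all alternatives. Leaving out a sample gave 11.3 to 11.9 for basement-membrane, 0.648 to 0.952 for fibrillar, -5.04 to -4.85 for network, -4.37 to -4.17 for membrane and -4.74 to -4.36 for fibril-associated chains. Without COL4A2 the changes were 10.8, 2.27, -5.97, -3.995 and -5.34 in that order. Per kilobase of transcript they were -5.2 for network, -6.6 for membrane and -1.95 for fibril-associated chains. Per kilobase of all annotated exons they were 9.78, 1.74, -5.54, -4.64 and -2.92. Leaving out a sample, the PELP1-KD over control ratio was 1.33 to 1.4 for COL4A1 to COL4A2, 0.657 to 0.848 for COL5A1 to COL5A2, 0.662 to 0.745 for COL6A1 to COL6A2 and 1.47 to 1.63 for COL6A3 to COL6A1.

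The replicate numbers are shared by the groups, but the correlations of same-numbered deviations were 0.039, 0.065 and -0.078, so they were not taken as pairs. With the replicate block, 10 chains, COL11A2 among them, were higher and 5 lower, as without it. Depth limits the scarce chains: a count of 3 corresponds to at least 0.127 CPM, and 22 chains could not be tested.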

Other observations

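The 13 chains with a few reads belong to no comparison. COL24A1, a fibrillar chain of developing bone, had 5, 0 and 2 reads in the control cells and 7, 4 and 7 reads in PELP1-KD cells. COL11A1, the partner of COL11A2 in type XI collagen, had 1 read in each control sample and 1, 5 and 5 reads in PELP1-KD cells. COL2A1, the cartilage fibril chain, had 0 reads in 5 samples and 4 in PELP1-KD replicate 2. Fitted without the filter on low counts, none of the 13 had an adjusted p below 0.05 by edgeR's quasi-likelihood test.

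Endothelial and leukocyte markers were scarce. The 3 endothelial markers summed to between 0.296 and 0.676 CPM in the control cells and between 0.923 and 1.17 CPM in PELP1-KD cells, and VWF, the endothelial clotting factor, had 1, 6 and 0 reads in the control cells and 12, 20 and 16 reads in PELP1-KD cells. VWF passed the filter on low counts only through the samples where it was high, and its test is not given. The 3 leukocyte markers summed to at most 0.532 CPM in the control cells and 0.75 CPM in PELP1-KD cells. The 2 epithelial adhesion genes summed to between 8.8 and 10.5 CPM in the control cells and between 8.72 and 11.2 CPM in PELP1-KD cells. The luminal receptors summed to between 109 and 128 CPM in all 6 samples, nearly all from ERBB2. FN1, which encodes the matrix protein fibronectin on which cells lay down collagen, rose by a log2FC of 0.38 (adjusted p = 1.08e-08). The other 3 genes of its list fell, VIM by 0.21 on the log2 scale (adjusted p = 7.19e-06), AXL by 0.13 (adjusted p = 0.000187) and CD44 by 0.55 (adjusted p = 8.62e-13). The 4 genes of the mesenchymal-like line summed to between 4968 and 5086 CPM in the control cells and between 4260 and 4321 CPM in PELP1-KD cells.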
